A study of Mus musculus with 7 samples.

Results

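The genes described here are the ADAM, ADAMTS, ADAMTS-like and MMP families, the 4 TIMP inhibitors, the plasminogen activators Plat and Plau, and the serpin Serpine2. They were taken by symbol from the authors' deposited table, and 62 of its 17732 genes met the rule. The study measured polyadenylated RNA in bulk medial prefrontal cortex, from wild-type (WT) males of the 129SvEv strain, taken once a remote memory had been retrieved. There were 3 libraries in a group labelled CFC and 4 in a group labelled SC, and the groups share tissue, sex, genotype, strain and the retrieval. The labels give neither the age of the mice nor the meaning of the abbreviations, and do not say whether each library came from a separate animal. If it did not, the p-values measure only the spread between libraries.

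These families cut or guard the proteins around and on the surface of cells. ADAMs are anchored in the membrane and release the outer parts of other membrane proteins, ADAMTS enzymes are secreted and cut matrix proteoglycans and procollagens, and MMPs cut matrix and surface proteins. TIMPs block these metalloproteases, and the plasminogen activators and their serpin inhibitors control a separate, serine-type route to matrix breakdown. In the cortex the families are known for turnover of perineuronal nets, shedding of synaptic and growth factor proteins, and plasticity.

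Most of the metalloproteases in the set share 1 short stretch, the zinc-binding motif of metzincin proteases. It was searched by name in the reading frame of the longest coding sequence of each gene in GENCODE M21 on GRCm38, which is the mm10 assembly named in the submitters' processing notes. Either the common form or the variant known in part of the ADAMTS family was accepted. The motif was found in 42 of the 62 genes. Among all 15902 listed genes with a coding sequence it was found in 51 (0.321%), a count that includes these 42. Most of the 62 genes were picked from metalloprotease families known for the motif, so the high share among the 62 was set in advance. It was present in 11 of 18 ADAM, 18 of 19 ADAMTS and 13 of 13 MMP genes, and in none of the 5 ADAMTS-like, 4 TIMP, Plat, Plau and Serpine2 genes. Adam11, Adam22 and Adam23, known as adhesion receptors without protease activity, were among the 8 ADAM and ADAMTS genes without it. Adamts8 was the only ADAMTS gene without a match, which says only that these codons are not in its sequence. The sites of the genes on which the results below turn are shown 5′ to 3′ on the coding strand, with the codons that the motif fixes in capitals.
Adam33: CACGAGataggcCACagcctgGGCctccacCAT
Adam19: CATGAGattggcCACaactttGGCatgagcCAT
Adam10: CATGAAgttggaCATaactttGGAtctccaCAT
Adamts2: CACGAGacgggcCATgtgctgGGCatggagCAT
Adamts4: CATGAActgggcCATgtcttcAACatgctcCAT
Mmp16: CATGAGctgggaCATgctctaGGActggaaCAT
Mmp17: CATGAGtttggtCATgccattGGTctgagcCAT
The Adam33 site lies within 1 exon at chr2:131055130-131055162 on the minus strand and starts at codon 346 of 797. The Adam19 site lies within 1 exon at chr11:46125050-46125082 on the plus strand, and that of Mmp16 within 1 exon at chr4:18051748-18051780 on the plus strand. An exon junction divided the site in all 18 ADAMTS genes that have it, in 1 of 11 ADAM genes, which is Adam10, and in none of the 13 MMP genes. Adamts4, a proteoglycan-cutting enzyme, carries the variant form, as do 4 other ADAMTS genes. Over its 33 bases the Adam33 site shared 16 to 25 bases with the sites of the other genes whose sequence was compared. Part of that identity was set by the search itself, which fixed what the codons in capitals encode.

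Levels were compared per length, as the mean normalized count in the authors' deposited table divided by kilobases of exon in GENCODE M21. The 62 genes ranged from 0.133 to 1407 counts per kb with a median of 16.3, against 63.7 for all genes, and 19 of them lay above that median. Timp2, an inhibitor of MMPs, had the highest level at 1407 per kb, above 98.0% of listed genes. Among the proteases, Mmp17, a membrane-anchored MMP, stood at 512 per kb and Adam10, a sheddase of APP and Notch, at 426. The 3 adhesion receptors of the ADAM family were also abundant, with Adam11 at 617, Adam22 at 505 and Adam23 at 220 counts per kb. All 5 inhibitors lay above the median of all genes. All 6 secreted MMPs (2.95 to 10.2 counts per kb) and all 7 ADAMTS genes of the proteoglycanase clades (2.42 to 41.5) lay below it. Adam33, at 14.8 per kb, stood at percentile 27.6 of all genes. These levels are averages over the 7 libraries with no spread, so the order of close neighbours was not tested.

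**Figure D1:**
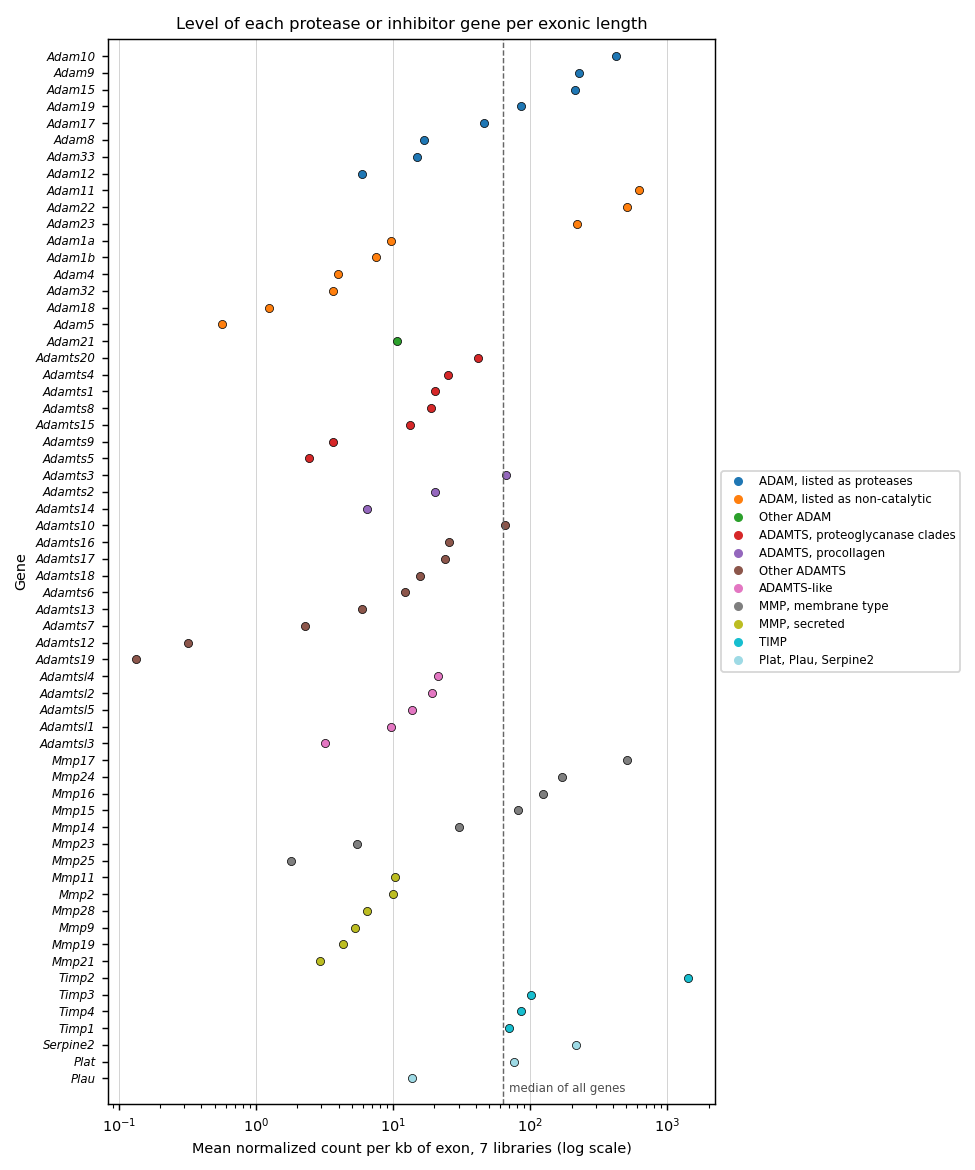
Mean normalized count per kb of exon, averaged over 7 libraries (log axis), for the 62 genes (1 point each), coloured by role. The dashed line is the median of all genes, 63.7 per kb. Timp2 is highest at 1407, and the 6 secreted MMPs sit between 2.95 and 10.2.

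Differences between CFC and SC are given by sign only, because neither the labels nor the file headers name the numerator of the fold change. Values of single libraries were not analysed here, so each difference rests on the authors' log2 fold change and its standard error (SE, from 3 and 4 libraries). An adjusted p-value was listed for 40 of the 62 genes and was empty in the other 22, all with a mean count of 34.8 or less. At an adjusted p under 0.05 (DESeq2's Wald test over all genes, by the authors), 1 of the 40 genes was called, Adam33. The same rule called 0.513% of all genes tested (67 of 13060). At an adjusted p under 0.1 there were 2, Adam33 and Adamts2, where 0.773% of all tested genes passed. At an unadjusted p under 0.05 there were 6 of 62 genes (9.68%), where 6.82% of all genes passed. The sign was negative for 2 of them, Adam33 and Adam19, and 2.78% of all genes passed with that sign. It was positive for 4, which were Adamts2, Mmp16, Adamts12 and Mmp11, and 4.04% of all genes passed with that sign. The 40 genes had 21 positive and 19 negative values in the authors' deposited table, and their median log2 fold change of 0.0022 stood beside -0.0017 over all genes. The family thus had no shared direction, and 1 member stood far from the rest.

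Adam33 (ENSMUSG00000027318, chr2:131050591-131063814, minus strand) encodes an ADAM with the zinc-binding motif, known mainly from smooth muscle and connective tissue of the airway. Its mean count in the authors' deposited table was 80.1. The log2 fold change there was -1.28 with an SE of 0.23 (adjusted p = 1.11e-04, DESeq2), a 2.42-fold difference. The 95% interval, computed from that table, ran from -1.74 to -0.82. By unadjusted p it ranked 7 among all genes. Its SE was 1.13 times the median SE of genes of similar mean count. Around a mean count of 77.6 the median SE was 0.210 and the 90th percentile 0.232. The estimate was thus less precise than is usual at that abundance. None of its exons overlapped another annotated gene. Of 14 listed genes within 250 kb of Adam33, none passed an unadjusted p of 0.05. The 12 with an adjusted p ranged from -0.14 to 0.21 in log2 fold change, with a lowest adjusted p of 0.765 (DESeq2, the authors' deposited table). No neighbour's estimate came near that of Adam33. In bulk tissue, fewer cells of a type and less RNA per cell cannot be told apart.

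Adamts2 (ENSMUSG00000036545, chr11:50602084-50807573, plus strand), which trims the amino end of procollagens, came next. It had a mean count of 188 and a log2 fold change of 0.63 with an SE of 0.18 (adjusted p = 0.0694, DESeq2, the authors' deposited table). Its 95% interval was 0.28 to 0.97, and it missed the threshold. The related procollagen peptidase Adamts3 stood at 0.03 (SE 0.13) and Adamts14, with a mean count of 33.6, at 0.40 (SE 0.33) in the authors' deposited table. All 3 genes of this class had a positive sign, and only the interval of Adamts2 lay wholly on 1 side of 0.

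**Figure D2:**
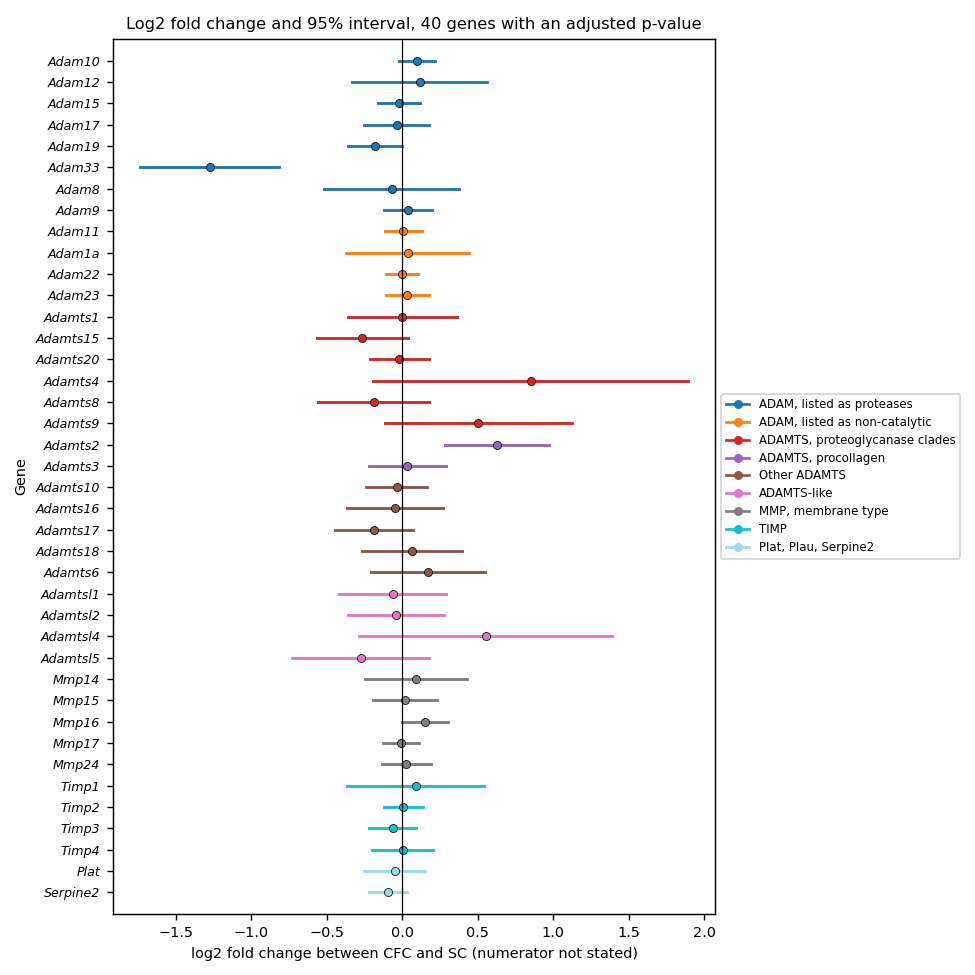
Log2 fold change between CFC and SC (points) with its 95% interval (bars, from the authors' SE) for the 40 genes with an adjusted p-value, coloured by role. Adam33 at -1.28 is the one gene past the threshold, and most other intervals are centred near 0.

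The other ADAM proteases lay close to 0. Adam10 had a log2 fold change of 0.10 (SE 0.06, 95% interval -0.02 to 0.22) and Adam17, the sheddase of TNF and EGF-family ligands, of -0.04 (SE 0.11, interval -0.25 to 0.18), from the authors' deposited table. Adjusted p was 0.823 for Adam10 and 0.999 for Adam17 (DESeq2, the authors' deposited table). Adam19, a sheddase with neuregulins among its substrates, stood at -0.18 (SE 0.09, unadjusted p = 0.0493, adjusted p = 0.647, DESeq2) in the authors' deposited table. Its interval reached almost to 0 (-0.36 to -0.0005), and its exons overlap those of 2 genes on the other strand. For Adam9, Adam15, Adam8 and Adam12 the authors' deposited table listed 0.04, -0.02, -0.07 and 0.11. Apart from Adam33, the 7 ADAM genes listed as proteases thus had point estimates within 0.2 of 0, and none of these 7 passed the adjusted threshold.

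The adhesion receptors of the ADAM family bind the secreted LGI proteins and hold synaptic complexes in place. They gave some of the narrowest intervals of the set. Adam22 had a log2 fold change of -0.0022 (SE 0.06), Adam11 of 0.0083 (SE 0.06) and Adam23 of 0.03 (SE 0.07) in the authors' deposited table. Each of the 3 intervals lay inside a 1.2-fold change in either direction. Their partner Lgi1 stood at -0.03 with an SE of 0.07 (adjusted p = 0.999, DESeq2, the authors' deposited table). For this receptor system, differences above 1.2-fold thus lay outside the intervals of all 3 receptor genes.

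The ADAMTS enzymes of the proteoglycanase clades cut aggrecan, brevican, neurocan and versican, the proteoglycans of perineuronal nets. None of the 6 with an adjusted p passed the threshold, and 3 had each sign. Adamts1 had a log2 fold change of 0.0017 (SE 0.18), Adamts20 of -0.02 (SE 0.10), Adamts15 of -0.26 (SE 0.15) and Adamts8 of -0.19 (SE 0.19) in the authors' deposited table. Adamts5 was too low to receive an adjusted p, at a mean count of 26.1, with a value of -0.0015 (SE 0.35). Adamts15 and Adamts8 lie 20.1 kb apart on chromosome 9 and had the same sign, with both intervals including 0. Adamts1 and Adamts5 are neighbours on chromosome 16, 53.1 kb apart, and both estimates were close to 0, with opposite signs. Adamts9 stood at 0.50 (SE 0.32, adjusted p = 0.824, DESeq2) in the authors' deposited table.

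Adamts4, which is known to be made by mature oligodendrocytes, differed from its relatives in the size of its error. Its log2 fold change was 0.85 with an SE of 0.53 at a mean count of 121 (adjusted p = 0.823, DESeq2, the authors' deposited table). The 95% interval ran from -0.19 to 1.89. The SE of Adamts4 was 3.08 times the median SE of genes of similar mean count, whereas that of Adamts1, with a mean count of 108, was 1.03 times. Among the 62 genes only Adamts4 and Adamtsl4, a secreted relative without a protease domain, exceeded a ratio of 2, which 1.45% of all genes did. Adamtsl4 had a ratio of 2.18 and a log2 fold change of 0.55 (SE 0.43, adjusted p = 0.920, DESeq2, the authors' deposited table). Genes of oligodendrocytes and myelin, of which 14 were listed, combined a positive sign with a large error as well. All 14 exceeded a ratio of 2, with a median ratio of 5.55. Their log2 fold changes ran from 0.86 to 1.67, the median being 1.17. By the authors' DESeq2 test 0 of 14 were called at the adjusted threshold, beside 0.513% of all genes tested. An unadjusted p under 0.05 was listed for 13, beside 6.82% of all genes. The list was chosen with earlier results of these data known, so its uniform sign is a description and no test. The ratio of the myelin enzyme gene Aspa, with a mean count of 117, was 3.16. A positive sign with a ratio over 2 was not particular to the oligodendrocyte list. All 8 genes of a striatal list were positive and 7 exceeded a ratio of 2. All 12 genes of a deep-layer list were positive and 4 exceeded it. The part of the oligodendrocyte genes in the values of Adamts4 and Adamtsl4 was not tested.

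**Figure D3:**
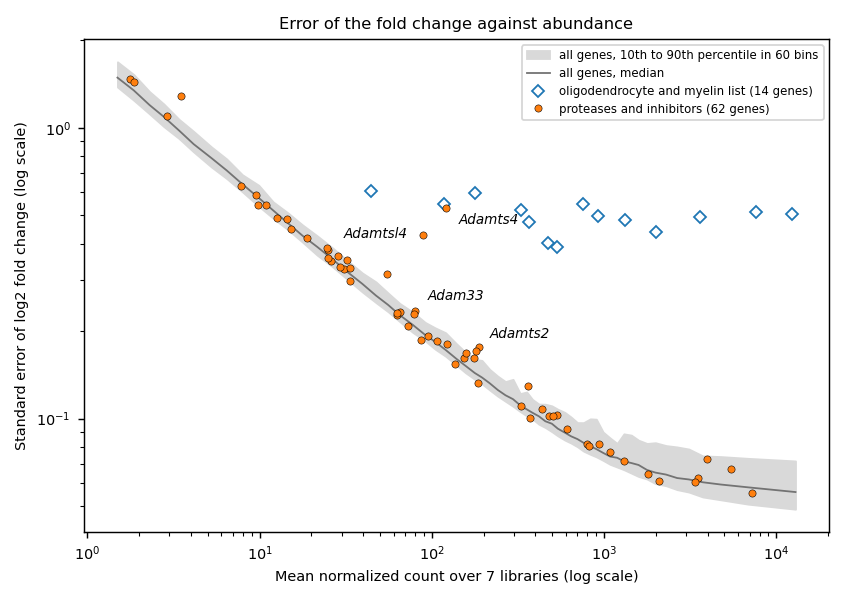
Standard error of the log2 fold change against mean normalized count (both axes log) for the 62 genes (orange) and 14 oligodendrocyte and myelin genes (diamonds). The line and band are the median and the 10th to 90th percentile of all genes in 60 bins. Adamts4 (0.53) and Adamtsl4 (0.43) sit far above the band. Adam33 (0.23) lies slightly above its upper edge, as do some other genes of the set, among them Adamts2 (0.18).

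The remaining ADAMTS and ADAMTS-like genes gave no call. Adamts10, a binding partner of fibrillin microfibrils, was the most abundant of the other ADAMTS genes at 64.9 counts per kb, with a log2 fold change of -0.04 (SE 0.10) in the authors' deposited table. Adamts6, Adamts16, Adamts17 and Adamts18 ranged from -0.19 to 0.17 there, with SEs of 0.13 to 0.19. Adamtsl5 stood at -0.28 (SE 0.23), and Adamtsl1 and Adamtsl2 at -0.06 and -0.04 (SE 0.18 and 0.16), in the authors' deposited table. All 5 intervals of the other ADAMTS genes with an adjusted p lay inside a 1.5-fold change in either direction.

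Of the 7 membrane-type MMPs 5 had an adjusted p, and the other 2, Mmp23 and Mmp25, were as low as the secreted ones, with mean counts of 12.7 and 9.49. Mmp16, an MMP of the cell surface, had a log2 fold change of 0.15 (SE 0.08, unadjusted p = 0.0484, adjusted p = 0.642, DESeq2, the authors' deposited table). Its interval, 0.001 to 0.30, only just excluded 0. Mmp17 stood at -0.0055 (SE 0.06), Mmp24, known to cut N-cadherin, at 0.03 (SE 0.08), Mmp15 at 0.02 (SE 0.11) and Mmp14, the activator of Mmp2, at 0.09 (SE 0.17) in the authors' deposited table. The intervals of these 5 genes lay inside a 1.5-fold change, and those of Mmp15, Mmp17 and Mmp24 also inside a 1.2-fold change, with bounds from -0.19 to 0.23.

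The gelatinases Mmp2 and Mmp9, of which Mmp9 is the MMP most studied in synaptic plasticity, were too low to receive an adjusted p. Their mean counts were 33.4 and 18.8, with log2 fold changes of -0.17 (SE 0.30) and -0.26 (SE 0.42), in the authors' deposited table. The interval of Mmp9, -1.07 to 0.56, contains 2-fold differences of 1 sign and 1.2-fold differences of both. Mmp3, a stromelysin, was not analysed here. Mmp11 stood at 0.73 (SE 0.36, unadjusted p = 0.0447) at a mean count of 28.5, with no adjusted p in the authors' deposited table. For Adamts12 the value was 2.91 (SE 1.29, unadjusted p = 0.0236) at a mean count of 3.50, the level of a few reads per library. Among the 22 genes of low count, intervals reached up to 5.43 (Adamts12) and down to -1.76 (Adamts19), and precision differed widely between these genes. The interval of Mmp2, -0.75 to 0.41, excluded a 2-fold difference of either sign, whereas that of Adam5, -0.99 to 4.79, was the widest.

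Several of the low-count genes are ADAMs known mainly from testis and sperm. Adam4, Adam5, Adam18 and Adam32 had mean counts of 1.78 to 10.9 and carry no zinc-binding motif, and their estimates ran from -0.32 to 1.90 with SEs of 0.54 to 1.47 in the authors' deposited table. Adam1a and Adam1b, neighbours 15.1 kb apart on chromosome 5, both hold the motif and share all 33 bases of the site, and how the counting treated reads common to both copies is not given in the sources used here. Their log2 fold changes were 0.04 (SE 0.21) and -0.45 (SE 0.38) in the authors' deposited table. Exons of Adam1a also overlap those of Gm42878 (4779 bases) and of the kinase gene Mapkapk5 (1805 bases) on the same strand, and of Tmem116 (848 bases) on the other. For Adam21 the value was 0.34 (SE 0.33). Adamts7, Adamts13, Adamts19 and Adamtsl3 ranged from -0.20 to 1.05, and Mmp19, Mmp21, Mmp23, Mmp25 and Mmp28 from 0.03 to 0.79, in the authors' deposited table. Of the 22 genes without an adjusted p, only Mmp11 and Adamts12 had an interval that excluded 0.

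**Figure D4:**
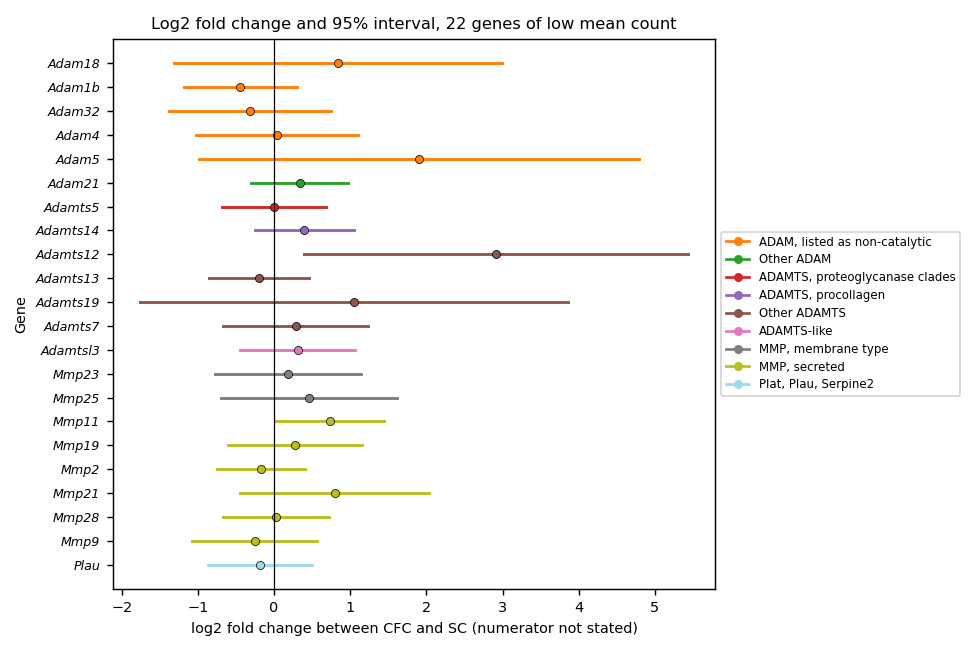
Log2 fold change (points) with its 95% interval (bars, from the authors' SE) for the 22 genes without an adjusted p-value. The axis is wider than for the 40 tested genes, and the interval of Adamts12 reaches 5.43.

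The inhibitors were among the most precisely measured members. Timp2 had a log2 fold change of 0.0083 (SE 0.07), Timp3, the matrix-bound inhibitor that also blocks Adam17, of -0.06 (SE 0.08), and Timp4 of 0.0028 (SE 0.10) in the authors' deposited table. Timp1, the form induced by injury and inflammation, was the least precise at 0.09 (SE 0.23), with a mean count of 62.5. For the 4 TIMPs the adjusted p was 0.991 to 0.999 (DESeq2, the authors' deposited table). Serpine2, a secreted inhibitor of thrombin and plasminogen activators, stood at -0.09 (SE 0.06, adjusted p = 0.875, DESeq2, the authors' deposited table). The intervals of 4 of the 5 inhibitors lay inside a 1.2-fold change in either direction, all but Timp1. Exons of Timp3 and Timp4 overlap those of the synapsin genes Syn3 and Syn2 on the other strand, over 1733 and 90 bases, and the strand setting of the counting is not given in the sources used here.

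Plat, the tissue plasminogen activator of neurons, had a log2 fold change of -0.05 (SE 0.10, 95% interval -0.25 to 0.15, adjusted p = 0.999, DESeq2) in the authors' deposited table. Plau, the urokinase, stood at -0.19 (SE 0.35) at a mean count of 32.3 there. Plat, Plau and Serpine2 all had a negative sign, with all 3 intervals including 0. Across the 40 tested genes, 17 intervals (42.5%) lay inside a 1.2-fold change and 34 (85.0%) inside a 1.5-fold change, beside 47.1% and 87.9% of all tested genes.

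Genes that act on these proteases were read from a list of names, chosen with earlier results of these data known. Counts and signs within it are therefore a description and no test. Of 22 matched regulators, 17 had an adjusted p, of which 12 were positive and 5 negative. Their median log2 fold change was 0.07, and none was called. An unadjusted p under 0.05 was listed for 3 of the 22 (13.6%, beside 6.82% of all genes). These were Pcsk6, a proprotein convertase (0.37, SE 0.15), Tspan15 (0.37, SE 0.15) and Tspan17 (-0.27, SE 0.11), in the authors' deposited table. Tspan15 and Tspan17 encode tetraspanins that escort Adam10 to the cell surface, and they had opposite signs. Their adjusted p-values were 0.431 and 0.430, and that of Pcsk6 was 0.416 (DESeq2, the authors' deposited table). Tspan14, another escort of Adam10, stood at -0.01 (SE 0.09), and the membrane-bound MMP inhibitor Reck at 0.07 (SE 0.12). Rhbdf2, the iRhom that carries Adam17, was low, with a mean count of 16.7 and a value of -0.12 (SE 0.42) in the authors' deposited table.

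The 24 substrates and partners, from a list chosen with the same knowledge, were divided evenly by sign (12 each way). Their median log2 fold change was -0.00099, and none was called. The net proteoglycans Bcan and Ncan stood at -0.08 (SE 0.06) and -0.0043 (SE 0.06) in the authors' deposited table. The gene of the Adam10 and Adam17 substrate fractalkine, Cx3cl1, was the only one with an unadjusted p under 0.05. That is 1 of 24 (4.17%), a lower share than the 6.82% of all genes. Its log2 fold change was -0.14 (SE 0.05, unadjusted p = 0.0060, adjusted p = 0.286, DESeq2, the authors' deposited table).

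Markers of cortical layers, neighbouring striatum and cell types are given here beside Adam33 and Adamts2, and calls among them were limited to the layer lists and 1 striatal gene. The lists were chosen with earlier results of these data known, so a uniform sign within a list is a description and no test. Among all genes tested 0.513% were called, and 6.82% of all genes had an unadjusted p under 0.05. In this tissue, labelled as prefrontal cortex, the lowest mean count was 53.4 among the deep-layer genes and 708 among the upper-layer genes. Those of the deep layers numbered 12, every one positive (median log2 fold change 0.49, 5 called), and those of the upper layers 9, every one negative (median -0.27, 2 called). All 8 striatal genes were positive (median 0.73, 1 called), and their SEs were 3.47 times the trend at the median. The called gene was Drd1 (0.76, adjusted p = 3.66e-05, DESeq2, the authors' deposited table), with an SE only 1.25 times the trend. The other 7 striatal genes, none of them called, each exceeded a ratio of 2. The 8 endothelial genes were all negative (median -0.16, none called, 3 under an unadjusted p of 0.05), as were 7 of 8 microglial genes (median -0.11, none called, 2 unadjusted). Of 8 astrocyte genes 6 were negative (median -0.08, none called, 1 unadjusted), while Gfap, the astrocyte filament gene, stood at 0.56 in the authors' deposited table with an SE 5.66 times the trend. Of 11 mural and fibroblast genes, 7 had an adjusted p, 5 of them positive, with a median of 0.11 and none called. The log2 fold change of Adam33 lay below that of every gene on these lists with an adjusted p, the lowest being Otof at -0.42. The summed mean counts of the lists over the 7 libraries ran from 2825 (mural and fibroblast) to 93901 (astrocyte). Of the astrocyte sum, 76891 came from Slc1a2 alone, and the sums are not per kb. Sums within each group were not analysed here. The part of cell and layer composition in the values of Adam33 and Adamts2 was not tested.

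**Figure D5:**
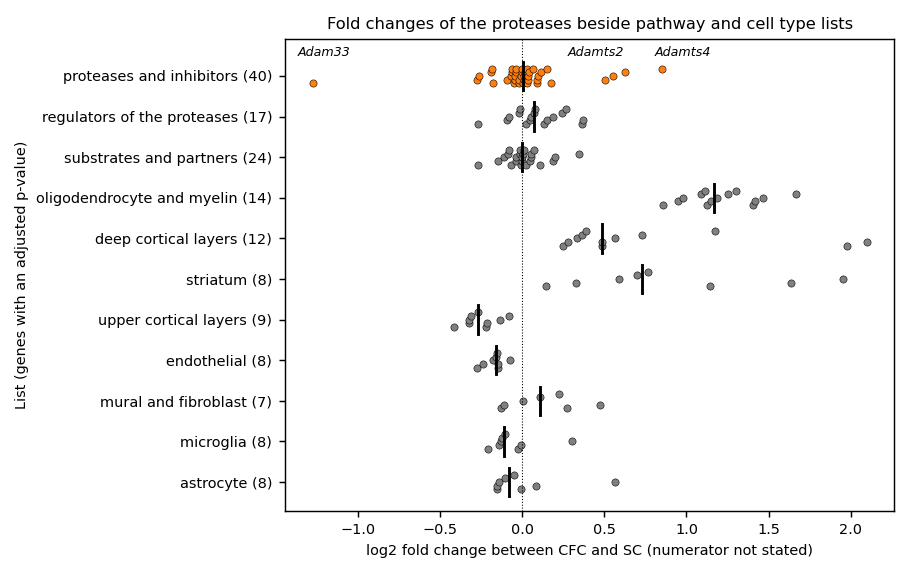
Log2 fold change of each gene with an adjusted p-value (points) by list, with the list median (black bar) and the number of genes in brackets. The 40 proteases and inhibitors centre on 0.0022 with Adam33 at -1.28, while the oligodendrocyte and deep-layer lists lie to the right of 0 and the upper-layer list to the left.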

How the data were processed

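The authors deposited 1 table of their own comparison of 7 libraries (3 CFC, 4 SC). Per the file headers it holds, for each gene, the authors' mean normalized count (a signal averaged over libraries), log2 fold change, standard error on the log2 scale, Wald statistic (a score), and unadjusted and adjusted p-value. Per the submitters' processing notes, Trimmomatic, Subread, DESeq2 and the mm10 build were used. Their versions, the gene annotation, the strand setting and the depth of single libraries are not given in the sources used here. Per the labels' protocols, 100 ng of RNA entered the KAPA mRNA HyperPrep kit.

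The planned count test needs values per library, so the fallback written with it, the authors' own Wald test, was used. From the table, 95% intervals (log2 fold change plus or minus 1.96 SE), counts per kb of exon (GENCODE M21, which held all 62 genes) and the ratio of each SE to the running median of 201 genes of similar mean count were computed with Python 3.11.15, pandas 2.3.3 and SciPy 1.17.1. The Benjamini-Hochberg and 1.2-fold calculations were tested on simulated data. Members, roles and lists were chosen with earlier results of these data known. Named were members under an adjusted or unadjusted p of 0.05, the highest level and largest Wald statistic per role, all inhibitors and plasminogen activators, a set known in brain, and the 5 narrowest and 5 widest intervals. In the 2 pathway lists, those under an unadjusted p of 0.05 and 6 chosen by name were named. Other genes, and the motif search, the SE ratio and the neighbours of Adam33, were added after values had been seen.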

Additional observations from a re-analysis of the deposited data

How the results depend on the processing

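No paired analysis was possible because values of single libraries were not analysed here. For the same reason another normalization, another count test, a replicate block and leaving a library out were not run, and whether 1 library decides a value was not tested. Of the 62 genes, 1 was called. A threshold of 0.1 gave 2 genes (Adam33 and Adamts2, beside 0.773% of all genes), and a mean count of at least 100 gave 0, since it leaves out Adam33. At that minimum 3 of 30 genes had an unadjusted p under 0.05 by the authors' DESeq2 test, against 6 of 62 before. Fewer genes were tested there, so the lower count is no lower share. When the null allowed changes up to 1.2-fold (the 1.2-fold null), 3 of 62 had an unadjusted p under 0.05. The matching shares over all genes were not computed. Adam33 stayed under 0.05 with no filter (1.36e-04), over the listed genes (1.01e-04), by Bonferroni (7.04e-04) and against the 1.2-fold null with both tails summed (0.0344). With the near tail doubled, a form chosen after seeing the data, it went above (0.0689), leaving 0 of the 62 genes. Over all genes the count of 67 became 101 at a threshold of 0.1, 21 by Bonferroni, and 3 or 2 against the 1.2-fold null with the tails summed or the near tail doubled. The median log2 fold change of the genes was 0.0022 and ranged from -0.0034 to 0.02. Adamts5 changed sign when the median of all genes was subtracted (0.000201), both values being near 0. The other 198 values of named genes kept their sign or their side of the threshold. Only the subtraction could change a sign, since the other settings recomputed p-values and left the fold change as it was. Genes with an adjusted p far above 0.05 had little room to cross the threshold. These settings are therefore no test of how stable the fold changes are.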
